A study of Mus musculus with 3 samples.

Results

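The Bcl2 family decides whether a cell under stress keeps its mitochondria intact, and 10 of its genes were followed here through the differentiation of a cementoblast line. The members were taken by symbol from a table of 46095 genes: the prosurvival genes Bcl2, Bcl2l1, Bcl2l2 and Mcl1, the BH3-only genes Bcl2l11, Bmf, Bad, Bid and Bik, and the effector Bak1. The cells were OCCM-30, a mouse line made from cementoblasts, which lay down the mineralised covering of the tooth root. The genotype of the line is listed as wild type, and any transgene that it carries was not examined here. One group was not induced (day 0), and the others spent 7 and 14 days in cementogenic medium, with 1 library of total RNA at each of the 3 time points. All groups come from this 1 line, no uninduced culture of 7 or 14 days was analysed here, and time in culture and induction cannot be told apart. In such bulk RNA, fewer cells carrying a transcript and less of it per cell cannot be told apart either.

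Prosurvival proteins such as BCL2, BCL-XL and MCL1 hold the effectors BAK and BAX in check on the outer mitochondrial membrane. BH3-only proteins carry a short helix that fits into the groove of the prosurvival proteins and so releases or activates the effectors, which then open the membrane and let cytochrome c out to start the caspases. In bone, BIM (the product of Bcl2l11) and BCL-XL are known to set the lifespan of osteoclasts and osteoblasts in mice.

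Counts summed to 13224690, 14034518 and 14439666 on days 0, 7 and 14. Levels between genes are given as the deposited FPKM (reads scaled for gene length and library total), and differences between days as ratios of CPM after TMM scaling with their 95% counting interval. A gene was called higher or lower where the log2 ratio, with 0.5 CPM added to both sides, was at least 1 in size, the higher library reached 1 CPM and the interval excluded a ratio of 1. With 1 library a group there is no replicate check and no p-value, and the intervals cover counting error only. Of 8 osteoblast and cementoblast markers 5 were called higher on day 7 and 6 on day 14, and none lower. Over all genes tested 10.7% and 8.26% were called higher on those days. The summed CPM of 6 macrophage and osteoclast markers was 4.29 on day 0, 9.29 on day 7 and 6.98 on day 14, with Adgre1 at 0 throughout, and 2 of the 6, Acp5 and Mrc1, were called higher on both later days. The sum of 4 endothelial markers was 1.34, 2.51 and 1.01 CPM in that order of days, with Cdh5 and Kdr at 0. The sum of 4 epithelial markers was 3.30, 0.443 and 0.144 CPM, with Epcam at 0 and Krt8 called lower, and that of 4 lymphocyte markers was at most 0.148, with Cd3e and Cd8a at 0. The part of such cells in the results was not tested.

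Of the 10 members, 9 reached 1 CPM. On day 7 against day 0, 1 of these, Bcl2l1, was called higher and 2, Bcl2 and Bid, lower. Among the 14694 genes tested in that comparison 10.7% were called higher, 10.1% lower and 20.7% in either direction (with library totals 1305 genes were higher and 1878 lower, against 1568 and 1481 with TMM), and 3 calls among 9 members are too few to be set apart from that background. On day 14 against day 0, 1 member, Bmf, was called higher and the same 2, Bcl2 and Bid, lower, beside 8.26% higher, 6.69% lower and 15.0% either way among 14593 genes (1019 higher and 1300 lower with library totals, against 1205 and 977 with TMM). Between day 14 and day 7 no member was called in either direction, against 1.68% of 14404 genes higher, 1.27% lower and 2.95% in all. The counting interval alone, whatever the size, excluded 1 for 9 of 9 members on day 7 and on day 14 against day 0, and for 6 of 9 on day 14 against day 7, where the shares over all genes were 70.8%, 64.8% and 46.9%. The median log2 ratio of the 9 members was 0.44 on day 7 and 0.16 on day 14 against day 0, beside 0.00 and -0.01 over all genes tested. Both comparisons with day 0 use the same day 0 library.

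**Figure D1:**
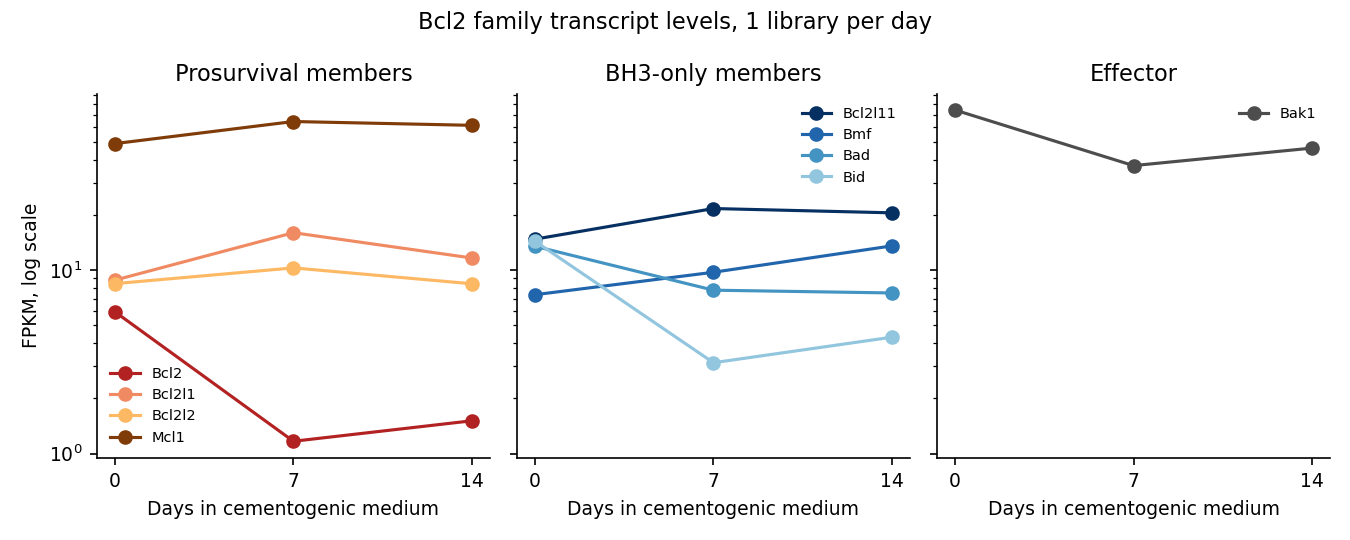
Deposited FPKM (log axis) of 9 members against days in cementogenic medium, split by role, with 1 point per library and lines joining the points of 1 gene; Bik, at 0 on days 7 and 14, is not drawn. Bcl2 and Bid lie lowest on day 7, at 1.17 and 3.13 FPKM, while Mcl1 stays the highest of the prosurvival genes in every library.

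Bcl2, the founding prosurvival gene (mm10 chromosome 1, 106538176 to 106714290, minus strand), had 564 counts on day 0, 118 on day 7 and 157 on day 14. Per length this was 5.92 FPKM on day 0, 1.17 on day 7 and 1.51 on day 14, so that it was the lowest of the 9 detected members in all 3 libraries. It fell 4.55-fold on day 7 against day 0 (95% counting interval 3.73 to 5.60) and was 3.51-fold lower on day 14 (2.93 to 4.21). The day 7 log2 ratio of -2.12 was lower than that of all but 2.03% of the genes tested. Day 14 against day 7 gave a ratio of 1.30 (1.02 to 1.66), inside the 2-fold limit.

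The start of Bcl2 is shown because Bcl2 had the largest day 7 log2 ratio in size among the members with TMM scaling; with the authors' FPKM that of Bid was larger (-2.04, and -1.94 for Bcl2). The 300 bases (250 before to 50 after the RefSeq start, GRCm38, chr1:106714241-106714540, minus strand) are given 5′ to 3′ with GC boxes in capitals, a GC box being GGGCGG on either strand.

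Bcl2 promoter: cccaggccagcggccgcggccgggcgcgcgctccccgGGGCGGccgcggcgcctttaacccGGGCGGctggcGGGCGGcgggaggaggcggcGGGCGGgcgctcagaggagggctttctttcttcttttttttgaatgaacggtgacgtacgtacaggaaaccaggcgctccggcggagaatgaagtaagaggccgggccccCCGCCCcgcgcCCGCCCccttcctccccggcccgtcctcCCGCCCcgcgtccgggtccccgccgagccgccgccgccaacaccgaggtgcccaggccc

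This window held 7 GC boxes, and at least 1 was found in 35.7% of 32851 promoter windows of that length. Its GC content was 76.0%, against a median of 52.7% over all windows. Promoters of 9 members were matched in RefSeq, in 15 windows since some genes have several starts, and their median GC content was 63.3%. Among the other members, whose calls differ, the windows of Bcl2l11 held 3 GC boxes each, that of Bid 3, those of Bad 4 and 0, those of Mcl1 and Bcl2l2 1 each, those of Bmf 0, 1 and 0, and those of Bcl2l1 and Bak1 none.

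Inside Bcl2 lies Gm37053, a gene named here after its values were seen, which the authors' table types as a long non-coding RNA and GENCODE as a transcript still to be characterised. Its listed span (chromosome 1, 106603763 to 106614945) is on the same strand and falls wholly in the intron of the 2-exon Bcl2 transcript of GENCODE, 168906 bases long, with 0 exonic bases shared. It had 219 counts on day 0, 47 on day 7 and 60 on day 14. It was 4.44-fold lower on day 7 than on day 0 (3.23 to 6.22) and 3.56-fold lower on day 14 (2.67 to 4.83), both called. Of the counts of the 2 genes together, Gm37053 took 28.0% on day 0 (exact binomial 95% interval 24.8 to 31.3), 28.5% on day 7 (21.7 to 36.0) and 27.6% on day 14 (21.8 to 34.1), and the 3 intervals overlap. Whether these reads come from unspliced Bcl2 RNA was not tested. GENCODE also places an antisense gene, D630008O14Rik, over 558 exonic bases of Bcl2, and the sources used here do not give the strand setting of the counting.

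By the rule of nearest log2 ratios on days 7 and 14 against day 0, over 10338 genes of 10 CPM or more, the genes most like Bcl2 were Gcsh (a glycine cleavage protein of mitochondria, distance 0.0142), Cd74 (the invariant chain of MHC class II, 0.0200) and Plscr1 (a phospholipid scramblase, 0.0462). Gcsh had 425, 87 and 118 counts on days 0, 7 and 14. Such likeness is over 3 libraries and is a description.

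Bcl2l1 encodes BCL-XL, a prosurvival protein of the mitochondrial membrane (chromosome 2, 152758732 to 152834797, minus strand). It had 642 counts on day 0, 1235 on day 7 and 925 on day 14, or 8.82, 15.99 and 11.6 FPKM in that order of days. Day 7 was 2.02 times day 0 (1.83 to 2.22), with a log2 ratio of 1.01 that sits on the edge of the rule. The call was lost with DESeq2 size factors (0.99), library totals (0.85), a pseudocount of 2 CPM (0.98) and the authors' FPKM (0.82). On day 14 the ratio to day 0 was 1.48 (1.33 to 1.63), and the ratio of day 14 to day 7 was 0.731 (0.670 to 0.797).

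The ratio of Bcl2l1 to Bcl2 within a library does not depend on library scaling. Per base of gene length, Bcl2l1 stood at 1.49 times Bcl2 on day 0 (1.33 to 1.67), 13.7 times on day 7 (11.3 to 16.7) and 7.72 times on day 14 (6.51 to 9.20). The 3 intervals, which cover counting error only, do not overlap. Bcl2 and Bcl2l1 were called in opposite directions on day 7, so the higher ratio on that day follows from values already given.

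Mcl1, which encodes a prosurvival protein that is made and degraded quickly (chromosome 3, 95658410 to 95663179), was the most abundant prosurvival transcript throughout. It had 2258 counts on day 0, 3161 on day 7 and 3100 on day 14, or 48.95, 64.6 and 61.55 FPKM on those days, at percentiles 93.5, 95.6 and 95.7 of detected genes. The ratio was 1.47 on day 7 (1.39 to 1.55) and 1.41 on day 14 (1.33 to 1.48) against day 0, both within 2-fold. Mcl1 made up 67.9% of the summed prosurvival FPKM on day 0, 70.2% on day 7 and 74.1% on day 14, whereas Bcl2 made up 8.20%, 1.27% and 1.81%.

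Bcl2l2 encodes BCL-W, a close relative of BCL-XL (chromosome 14, 54883365 to 54890858). It had 692 counts on day 0, 895 on day 7 and 754 on day 14. Its ratio to day 0 was 1.36 on day 7 (1.23 to 1.501) and 1.12 on day 14 (1.01 to 1.24). The sign of the day 14 log2 ratio, 0.16, turned with library totals (-0.003) and with FPKM (-0.0028), so no direction is given. GENCODE has a read-through gene, Gm20521, that shares 594 exonic bases with Bcl2l2, and its reads could be counted in Bcl2l2.

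**Figure D2:**
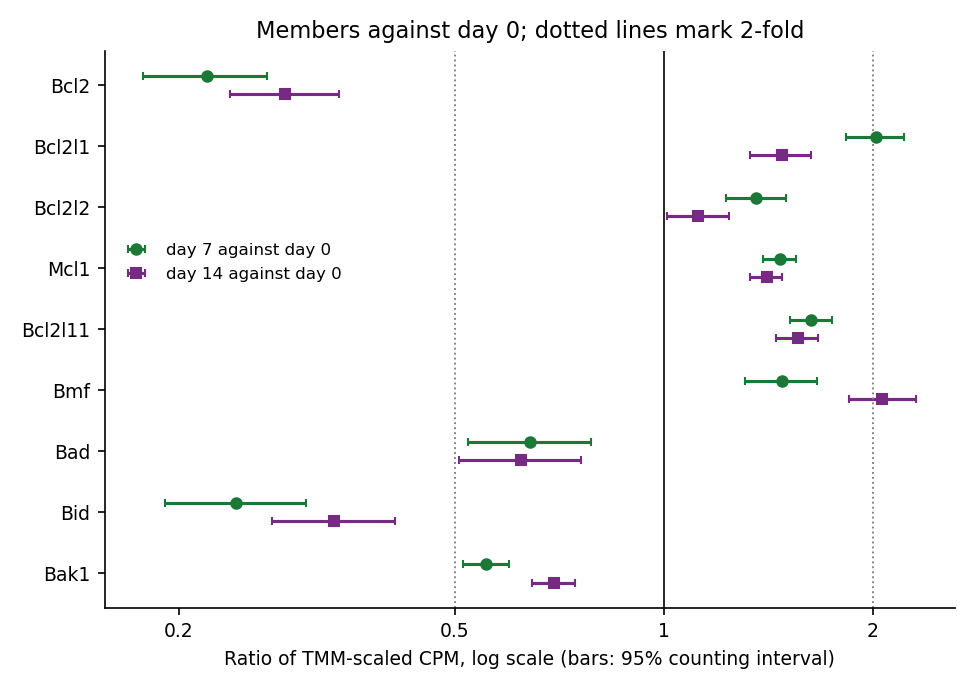
Ratio of TMM-scaled CPM on a log axis for 9 members, day 7 against day 0 (circles) and day 14 against day 0 (squares), with 95% counting intervals as bars. Bcl2 and Bid lie to the left of the dotted 2-fold line at both times, and Bcl2l1 (2.02, day 7) and Bmf (2.06, day 14) lie just past the one on the right.

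Among the BH3-only genes, Bid fell, and Bcl2l11 and Bmf held a larger share of the summed FPKM on both later days than on day 0. Bid encodes the protein that caspase-8 cuts to carry the signal of death receptors to mitochondria (chromosome 6, 120893119 to 120917141, minus strand). It had 394 counts on day 0, 91 on day 7 and 129 on day 14, or 14.4, 3.13 and 4.31 FPKM on those days. It fell 4.13-fold on day 7 (3.28 to 5.24) and was 2.98-fold lower on day 14 (2.44 to 3.67) than on day 0. Its share of the BH3-only FPKM was 28.7% on day 0, 7.39% on day 7 and 9.39% on day 14. Bcl2l13, on the opposite strand, shares 628 exonic bases with Bid in GENCODE and had 347, 390 and 357 counts on days 0, 7 and 14.

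Bcl2l11 encodes BIM, which binds all the prosurvival proteins and is known as a target of FOXO transcription factors (chromosome 2, 128126038 to 128162547). It had 1282 counts on day 0, 1997 on day 7 and 1947 on day 14, or 14.75, 21.7 and 20.5 FPKM on those days. The ratio to day 0 was 1.63 on day 7 (1.52 to 1.75) and 1.56 on day 14 (1.45 to 1.67), not past 2-fold, and day 14 over day 7 was 0.951 (0.893 to 1.01). Bcl2l11 made 29.5% of the BH3-only FPKM on day 0, 51.2% on day 7 and 44.7% on day 14. Per length it was 1.03 times Bid on day 0 (0.917 to 1.15), 6.93 times on day 7 (5.61 to 8.64) and 4.76 times on day 14 (3.99 to 5.74).

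The first of 2 Bcl2l11 start windows in RefSeq is shown because it is the single member window, of 15, that held the FOXO motif GTAAACA on either strand, which 3.65% of all windows hold. The motif is in capitals (GRCm38, chr2:128125788-128126087, plus strand, 5′ to 3′) and begins 227 bases before the start.

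Bcl2l11 promoter: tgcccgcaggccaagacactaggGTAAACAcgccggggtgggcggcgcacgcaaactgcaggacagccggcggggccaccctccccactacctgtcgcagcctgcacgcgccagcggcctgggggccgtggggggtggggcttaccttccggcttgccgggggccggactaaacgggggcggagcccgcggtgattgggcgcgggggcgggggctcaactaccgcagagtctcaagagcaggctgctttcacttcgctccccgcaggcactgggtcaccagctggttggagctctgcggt

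Of the FOXO genes in the list of partners, Foxo1 had 419 counts on day 0, 829 on day 7 and 620 on day 14. It was 2.08-fold higher on day 7 than on day 0 (1.84 to 2.34) and 1.52-fold on day 14 (1.34 to 1.72). The first was called, with a log2 ratio of 1.04 that sits on the edge of the rule. Foxo3 had 1124, 1879 and 1650 counts, and its ratio to day 0 was 1.75 on day 7 (1.63 to 1.89) and 1.5 on day 14 (1.39 to 1.62). FOXO1 and FOXO3 are kept out of the nucleus by AKT, so transcript level is not activity, and binding to the window was not measured.

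Bmf encodes a BH3-only protein that is tethered to the motor proteins of the cytoskeleton through dynein light chain (chromosome 2, 118528757 to 118549678, minus strand). It had 477 counts on day 0, 671 on day 7 and 961 on day 14, or 7.34, 9.73 and 13.55 FPKM on those days. On day 7 it was 1.48 times day 0 (1.31 to 1.66), and on day 14 it was called 2.06-fold higher (1.85 to 2.31), while day 14 over day 7 was 1.40 (1.27 to 1.54). The day 14 call was lost with library totals (log2 ratio 0.87) and FPKM (0.84). Per length Bmf was 0.15 times Mcl1 on day 0 (0.136 to 0.166), 0.151 on day 7 (0.138 to 0.164) and 0.220 on day 14 (0.205 to 0.237).

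Bad encodes a BH3-only protein that growth factor signalling switches off by phosphorylation (chromosome 19, 6941861 to 6951905). It had 260 counts on day 0, 159 on day 7 and 158 on day 14. Its ratio to day 0 was 0.642 on day 7 (0.523 to 0.785) and 0.622 on day 14 (0.507 to 0.761), both within 2-fold. Gpr137, on the opposite strand, shares 524 exonic bases with Bad in GENCODE and had 209, 135 and 156 counts on days 0, 7 and 14, and reads of the overlap cannot be told apart without strand.

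Bik, whose BH3-only protein sits at the endoplasmic reticulum (chromosome 15, 83526789 to 83544635), had 1 count on day 0 and 0 on days 7 and 14. It is not detectable at this depth beyond the limit that a count of 0 allows, 3 counts or 0.221 CPM on day 7 and 0.216 CPM on day 14, and no fold is given.

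Bak1 encodes BAK, which sits in the outer mitochondrial membrane and forms the pore (chromosome 17, 27019812 to 27028839, minus strand). It had 1974 counts on day 0, 1043 on day 7 and 1337 on day 14, or 74.6, 37.1 and 46.25 FPKM on those days. Its ratio to day 0 was 0.554 on day 7 (0.514 to 0.598) and 0.694 on day 14 (0.647 to 0.744), neither past the rule, although with library totals the day 7 log2 ratio of -1.0 was. Bax, another effector, which is no member, had 490 counts on day 0, 372 on day 7 and 339 on day 14. It was 1.26-fold lower on day 7 (1.09 to 1.44) and 1.41-fold lower on day 14 (1.23 to 1.63) than on day 0, both within 2-fold. Bok, a relative of BAK and BAX that is no member either, had 192, 359 and 253 counts on those days. It went the other way, 1.96-fold higher on day 7 (1.64 to 2.35) and 1.35-fold on day 14 (1.11 to 1.64), both within 2-fold. Bak1 was per length 4.47 times Bax on day 0 (4.04 to 4.94), 3.11 times on day 7 (2.76 to 3.51) and 4.37 times on day 14 (3.88 to 4.94). Ggnbp1, which overlaps Bak1 on the opposite strand, had 46, 34 and 28 counts on days 0, 7 and 14.

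The order of the levels shifted between libraries. On day 0 Bak1 stood above Mcl1, by 1.52 times (1.43 to 1.62), followed by Bcl2l11, Bid and Bad, whose neighbours did not differ beyond counting error, then Bcl2l1 and Bcl2l2, which did not differ beyond counting error either, Bmf and Bcl2. On days 7 and 14 Mcl1 was first, 1.74 times Bak1 on day 7 (1.62 to 1.87) and 1.33 times on day 14 (1.25 to 1.42). On day 7 Bcl2l1 came next after Bcl2l11, Bid stood next to last, 2.68 times Bcl2 (2.02 to 3.55), and Bcl2l2 and Bmf did not differ beyond counting error. On day 14 Bmf came next after Bcl2l11, 1.16 times Bcl2l1 (1.06 to 1.28), and Bcl2l2 and Bad did not differ beyond counting error. These orders rest on the listed gene lengths, and the intervals do not cover doubt in those lengths. The exonic bases in GENCODE differ, as for Bcl2l1 (4586, against 5504 listed), Bid (3550, against 2074), Bad (2558, against 1458) and Bcl2l11 (8029, against 6570). Neighbours such as Bmf and Bcl2l1 on day 14 can change order with the lengths used. So can steps further outside counting error, such as Bad over Bcl2l1 on day 0, 1.53 times (1.32 to 1.77), and Bcl2l11 over Bcl2l1 on day 7, 1.35 times (1.26 to 1.46).

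By role, the 4 prosurvival genes summed to 72.1 FPKM on day 0, 92.01 on day 7 and 83.1 on day 14, or 36.7%, 53.7% and 47.4% of the summed FPKM of all 10 members. The 5 BH3-only genes held 25.4% on day 0, 24.7% on day 7 and 26.2% on day 14. Bak1, the single effector among the members, held 37.9% on day 0, 21.7% on day 7 and 26.4% on day 14. Bax (16.7, 11.9 and 10.6 FPKM on days 0, 7 and 14) and Bok (9.31, 16.4 and 11.2 FPKM) are no members. They are left out of these sums, so the shares depend on which genes are listed. Within the BH3-only genes the make-up differed by day: Bcl2l11, Bid and Bad held 29.5%, 28.7% and 27.0% of their FPKM on day 0, and Bcl2l11 and Bmf held 51.2% and 23.0% on day 7 and 44.7% and 29.5% on day 14. These are shares of transcripts that rest on the same listed lengths, and protein was not measured.

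**Figure D3:**
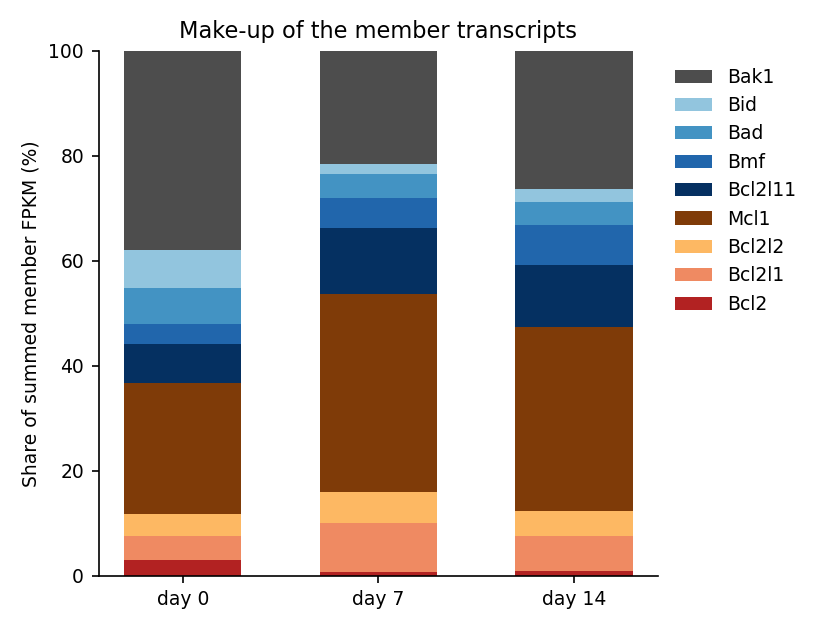
Share of the summed FPKM of the members taken by each gene in the library of each day, in percent, with prosurvival genes at the bottom, BH3-only genes in blue and Bak1 in grey on top. The prosurvival block is 36.7% on day 0, 53.7% on day 7 and 47.4% on day 14.

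**Figure D4:**
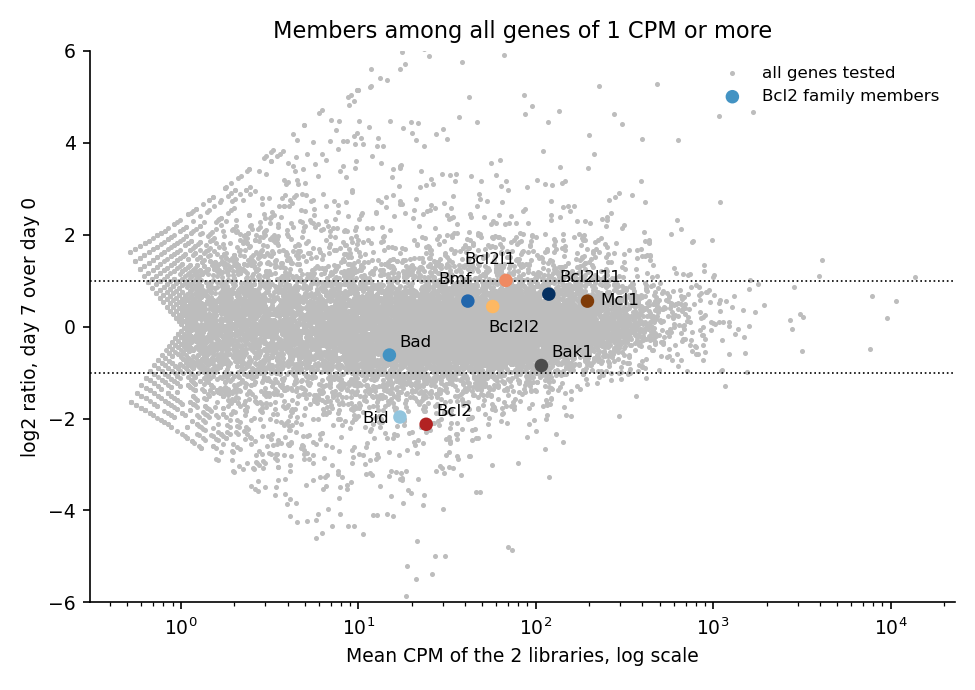
Log2 ratio of day 7 over day 0 against mean CPM on a log axis, with 14694 tested genes in grey, 21 of them beyond the axis limit of 6, and the members in colour. Bcl2 and Bid lie below the lower dotted 2-fold line, and the other members lie inside or at the lines.

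Of the other Bcl2 family genes, 7 of 15 reached 1 CPM, and 1 was called higher and none lower on both days. That gene was Bnip3, a hypoxia-induced receptor for mitophagy, with 1196 counts on day 0, 5686 on day 7 and 4071 on day 14. It was 4.99-fold higher on day 7 (4.69 to 5.31) and 3.49-fold on day 14 (3.27 to 3.72) than on day 0. Bnip3l had a ratio of 1.75 on day 7 (1.64 to 1.86). The p53 target Bbc3 (PUMA) had 100, 96 and 88 counts on days 0, 7 and 14, and Pmaip1 (NOXA) had 0 in each library, which allows up to 3 counts. The median log2 ratio was 0.23 on day 7 and 0.07 on day 14, beside 0.00 and -0.01 over all genes. Of all genes, 10.7% were called higher and 10.1% lower on day 7, and 8.26% and 6.69% on day 14.

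Of 17 caspase and apoptosome genes, 3 were called higher and 1 lower on day 7, and 2 higher and none lower on day 14. Those higher were the inflammatory caspases Casp1 (14 counts on day 0, 337 on day 7 and 272 on day 14) and Casp4 (77, 302 and 234 counts on those days), and on day 7 Casp12 (322, 759 and 583 counts). Casp1 was 25.3-fold higher on day 7 (14.8 to 46.7) and 19.9-fold on day 14 (11.7 to 36.9) than on day 0. Htra2, a mitochondrial protease released in apoptosis, fell 2.05-fold on day 7 (1.77 to 2.39). Aifm1, a mitochondrial flavoprotein gene, had a log2 ratio of -0.11 on day 7 and -0.13 on day 14. Under library totals the split was 3 higher and 2 lower on day 7, and 2 higher and 1 lower on day 14. The list's median was -0.08 and -0.09, beside 0.00 and -0.01 over all genes. The shares called over all genes were 10.7% higher and 10.1% lower on day 7, and 8.26% and 6.69% on day 14.

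In the death receptor list 9 of 13 genes reached 1 CPM, with 1 called higher and 2 lower on day 7, and 1 higher and 1 lower on day 14. Tnfrsf10b, the TRAIL receptor of the mouse, had 535 counts on day 0, 107 on day 7 and 169 on day 14, 4.76-fold lower on day 7 (3.86 to 5.92) and 3.09-fold lower on day 14 (2.60 to 3.70). Fadd, the adaptor that joins receptor to caspase-8, fell 2.42-fold on day 7 (1.95 to 3.02) to 117 counts, against 297 on day 0. Tnfrsf21 (death receptor DR6) was 15.1-fold higher on day 7 (8.82 to 28.2) with 202 counts, against 14 on day 0. Cflar, the inhibitor of caspase-8 known as FLIP, had a ratio of 1.94 on day 7 (1.78 to 2.12), and Tnfrsf1a had a log2 ratio of -0.15 on day 7. With library totals the day 14 split was 1 higher and 3 lower. The list's median was -0.20 on day 7 and -0.31 on day 14, beside 0.00 and -0.01 over all genes. Beside its calls stand 10.7% higher and 10.1% lower of all genes on day 7, and 8.26% and 6.69% on day 14.

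Of 23 partners of BH3 proteins and genes of Mcl1 turnover, 4 were called higher and 2 lower on day 7, and 3 higher and 2 lower on day 14. Pim1 and Pim3, kinases that phosphorylate BAD, were 5.51-fold (4.83 to 6.29) and 5.77-fold (5.15 to 6.47) higher on day 7 than on day 0, with 1427 counts against 272 and 1956 against 356. Pim2 had 112 counts on day 7 and 78 on day 14, against 217 on day 0, and was called lower on day 14 (2.72-fold, 2.09 to 3.57). Dynll1, the dynein light chain that holds BIM, fell 2.30-fold on day 7 (2.08 to 2.53). Itpr1, a calcium channel of the endoplasmic reticulum that BCL2 binds, was 3.23-fold higher on day 7 (3.09 to 3.37), while Itpr3 was 2.20-fold lower (2.08 to 2.34). Huwe1 and Usp9x, which add ubiquitin to MCL1 and remove it, had log2 ratios of -0.29 and -0.26 on day 7. With library totals 3 genes, not 4, were higher on day 7, and Foxo1 (log2 ratio 1.04 with TMM) was the called gene nearest the limit. The list's median was -0.22 on day 7 and -0.09 on day 14, beside 0.00 and -0.01 over all genes. Among all genes 10.7% were called higher and 10.1% lower on day 7, and 8.26% and 6.69% on day 14.

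No gene was called in the other lists, of 6 of 9 inhibitor of apoptosis genes that reached 1 CPM and of 12 pore and fission genes, in any of the 3 comparisons. Over all genes 20.7% were called on day 7 and 15.0% on day 14 against day 0, and 2.95% on day 14 against day 7. Birc6 and Xiap had log2 ratios of 0.05 and -0.33 on day 7, and Vdac1 and Dnm1l 0.50 and -0.06. The medians were -0.14 and -0.12 on day 7 and 0.03 and -0.07 on day 14. Between day 14 and day 7 no gene was called in any of the 6 lists.

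Mature miRNAs are known to bind the 3′ untranslated ends of these transcripts through their seed, bases 2 to 8, and 24 miRNAs of 6 seed families with described targets in the Bcl2 family were looked up in the miRNA counts of the same 3 samples. Of these, 23 were matched in RefSeq, with the same mature sequence in each case. The sequences, from the deposited miRNA table, are shown for the most abundant of each family with 100 CPM or more and for the pair that changed most, with the seed in capitals.

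miR-16-5p: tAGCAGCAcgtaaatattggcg
miR-195a-5p: tAGCAGCAcagaaatattggc
miR-497a-5p: cAGCAGCAcactgtggtttgta
miR-29a-3p: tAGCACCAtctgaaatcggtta
miR-93-5p: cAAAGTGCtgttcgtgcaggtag
miR-25-3p: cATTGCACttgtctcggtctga
miR-221-3p: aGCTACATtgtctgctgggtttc

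A match to a seed is 7 bases, and matches were sought in the longest GENCODE 3′ untranslated region of each gene. The following 24-base stretches are examples, with the match in capitals. Each joins a member to a family described, in mouse or human cells, as acting on it. The miR-15/16 match in Bcl2 lies at chr1:106540798-106540821 (minus strand), the miR-29 match in Mcl1 at chr3:95661843-95661866, a miR-17 match in Bcl2l11 at chr2:128160436-128160459 and the match to miR-221 and miR-222 in Bmf at chr2:118528944-118528967 (minus strand), all in GRCm38.

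Bcl2 site: ggaataagaaaccctgTGCTGCTa
Mcl1 site: gctagagtcttaaccaTGGTGCTa
Bcl2l11 site: agtctccccgactggaGCACTTTa
Bmf site: ggggagacccagcgagATGTAGCa

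The region of Bcl2, 5086 bases long, held 1 miR-15/16 match, which 53.9% of 957 regions within 20% of its length also hold, and that of Bcl2l2 held 4, a pair of them overlapping, where 40.8% of regions of like length hold any. Mcl1 held 1 miR-29 match (21.8% of regions of like length). Bcl2l11 held 2 matches each to miR-17, to miR-25 with miR-92, and to miR-221 with miR-222 (30.7%, 17.6% and 27.7%), and Bmf held 1 match to miR-221 with miR-222 (25.2%). Bcl2 held no match to miR-29 or miR-34, Mcl1 none to miR-15/16, and Bcl2l1 none to any of the families. Matches not shown include those to miR-29 in Bmf and Bak1, and to miR-17 and miR-34 in Bmf and Bid. For Bcl2l11, the other miR-17 match and the matches to miR-25 with miR-92 and to miR-221 with miR-222 are not shown either. Each stretch shown has an A after the match, which the other miR-17 match in Bcl2l11 lacks. The stretches shown are thus a choice among described pairs and do not stand for all matches. A match shows letters, not binding.

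The day 7 miRNA library stands apart, with a TMM factor of 1.46, against 0.864 on day 0 and 0.795 on day 14. The files used here hold no measure that checks the label of this miRNA library, a limit on every day 7 miRNA value. Of the 24 miRNAs, 18 reached 100 CPM. On day 7 against day 0, 5 of the 18 were called lower and none higher with TMM scaling, all of them with the miR-15/16 seed, beside 19.5% lower and 6.23% higher among 385 miRNAs of 10 CPM or more. On day 14 against day 0 none of the 18 was called with TMM or with library totals, beside 0.532% higher and 4.79% lower of 376 with TMM. The day 7 median log2 ratio of all miRNAs tested was 0.48 with library totals, against -0.29 with TMM, and the shares called over all miRNAs with totals are not given here. With library totals 2 of the 18 were lower and 2 higher on day 7. Those lower under both scalings were miR-195a-5p and miR-497a-5p, which are neighbours on chromosome 11. miR-195a-5p had 20434 counts on day 0, 2778 on day 7 and 21552 on day 14, and its log2 ratio on day 7 was -3.34 with TMM and -2.59 with totals. miR-497a-5p had 6479, 1012 and 5427 counts on those days, with -3.13 and -2.38. Bcl2 was lower than day 0 on both days, whereas these miRNAs were called lower on day 7 and had log2 ratios of 0.97 and 0.63 on day 14 with TMM, and 0.85 and 0.51 with totals. With DESeq2 size factors the day 14 log2 ratio of miR-195a-5p was 1.02 and was called higher. Whether these miRNAs act on Bcl2 was not tested. miR-29a-3p had a log2 ratio of -0.40 on day 7 with TMM and 0.35 with totals, so its sign depends on the scaling. The same holds for miR-93-5p (-0.68 with TMM and 0.07 with totals), miR-25-3p (-0.65 and 0.10) and miR-221-3p (-0.22 and 0.53).

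**Figure D5:**
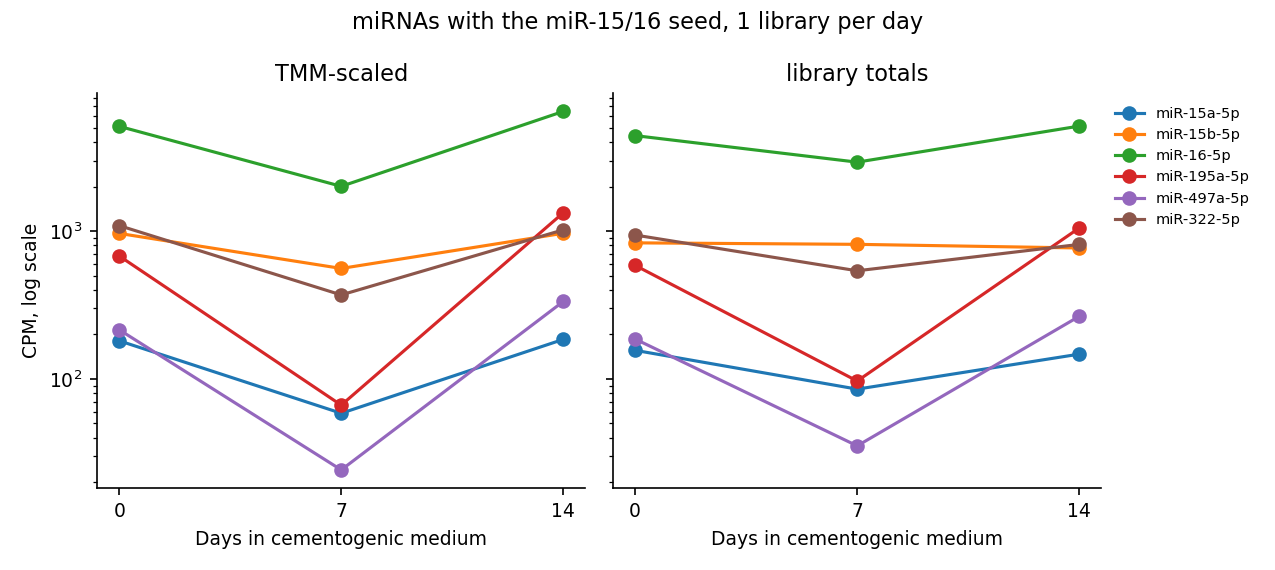
CPM (log axis) of the 6 miRNAs that share the miR-15/16 seed against days in cementogenic medium, scaled by TMM on the left and by library totals on the right, with 1 point per library. miR-195a-5p and miR-497a-5p dip on day 7 in both panels, and miR-15b-5p stays level with library totals.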

How the data were processed

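Genes and mature miRNAs were measured in 1 library each at days 0, 7 and 14. The submitters' processing notes name mm10 and the tools DESeq, HTSeq, Cufflinks, TopHat and HISAT2, without versions or roles, and no source used here gives the strand setting. The deposited gene table holds whole-number counts made by the authors, with gene lengths as listed, and the deposited FPKM equalled count over length and library total for 10 of 10 members in each library (tolerance 0.001). The deposited miRNA counts cover 1976 names; the deposited TPM values were not used in any result. TMM factors came from edgeR 4.0.16 (genes 1.08, 0.966 and 0.962 on days 0, 7 and 14; miRNAs 0.864, 1.46 and 0.795) in R 4.3.3. Intervals are exact Clopper-Pearson intervals of the ratio of counts, given their sum, and miRNAs needed 10 CPM in the higher library. The procedure was run on simulated Poisson counts with known changes. That is the error the interval assumes, so the run checks the code and not false calls from variation between cultures. Alternatives were DESeq2 1.42.0 size factors, library totals, other minimums, pseudocounts, a 4-fold threshold and FPKM. Named were all members, and from each list up to 4 called genes by log2 ratio on day 7 and the 2 most abundant. Bax, Bbc3 and Pmaip1, the 3 genes nearest to the member with the largest log2 ratio, and listed miRNAs of 100 CPM or more were named too. Other called genes (Foxo1, Itpr3, Pim2), Foxo3, Bok and Gm37053 were named after their values were seen. A gene that this rule names is not reported here. Members and lists were chosen with earlier results of these data known. Promoters came from RefSeq (GRCm38.p6) and transcripts from GENCODE on the same build as mm10. Scripts ran in Python 3.11.15 (scipy 1.17.1, pandas 2.3.3).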

Additional observations from a re-analysis of the deposited data

How the results depend on the processing

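No paired analysis was possible because each time point has 1 library. Of 216 values of the log2 ratio of members under the 8 alternatives, 202 kept direction and side of the threshold, 11 lost a call, 1 gained one and 2 turned sign: Bcl2l2 on day 14 against day 0, with library totals (-0.003) and the authors' FPKM (-0.0028). Part of this was fixed in advance. Every tested member passed 5 CPM in the higher library, so the other minimums could change nothing. The 4-fold threshold leaves the ratios as they are, and day 14 against day 7 had no member call to lose. Bcl2 and Bid stayed called lower against day 0 on both days under every alternative but the 4-fold threshold, which left 1 member on day 7 (Bcl2) and 0 on day 14. Over all genes, calls numbered 3049 on day 7 against day 0, and fell to 2019 when 5 CPM was the minimum, to 1964 when 2 CPM was added to both sides, and to 776 at 4-fold. For day 14 against day 0 they were 2182, and 1359, 1360 and 563 under the same settings. For day 14 against day 7 they were 425, and 139, 91 and 16, with 682 at a pseudocount of 0.1 CPM and 273 with FPKM. Library totals shifted the median gene by -0.15 on day 7 and -0.16 on day 14 against day 0. Scalings of miRNAs and lists were added after seeing the data; with DESeq2 size factors 1 miRNA was called higher on day 14 against day 0, against 0 with TMM. Low counts widen the intervals, as for Casp1 and Tnfrsf21 with 14 counts each on day 0, and leave Bik without a fold, and no setting stands in for replicate cultures.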
